A study of Mus musculus with 21 samples.

Results

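The outer layer of mouse skin is sealed by lipids that its uppermost living cells make and export, and 10 genes of this pathway are described here: Elovl4, Cyp4f39, Cers3, Pnpla1, Abca12, Alox12b, Aloxe3, Sdr9c7, Lipk and Lipn. They were taken by gene name from the deposited table of estimated counts, where all 10 were found among 23713 genes. RNA was measured by bulk sequencing of polyA RNA from tail keratinocytes, the cells of the epidermis, in 3 mouse models of basal cell carcinoma (BCC), a tumour in which Hedgehog signalling is switched on. Each model had 3 libraries from tumour-free controls (Con) and 4 from tumour-bearing mice (BCC), 21 in all. SmoM2 is an activated form of the Hedgehog receptor component Smoothened, and its cells were taken on day 29 after tumour induction. Gnas-eKO names a knockout of Gnas, the stimulatory G protein subunit that raises cAMP, sampled on day 42. PKI is the name of a protein inhibitor of protein kinase A, the kinase that cAMP activates, and its cells were taken on day 57. The labels name SmoM2 batch A, Gnas-eKO batch B and PKI batch C, so model, day and batch cannot be told apart. Every BCC and Con comparison was made inside 1 batch. Alleles of the controls, the promoter that drove each change, strain and age are not given in the sources used here. Per the file headers each library has its own animal name. In SmoM2 the BCC names start with BF and the Con names with TJ, as all Gnas-eKO names do. The meaning of these letters is not stated, and in SmoM2 they cannot be told apart from tumour state.

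The barrier lipid of these genes is acylceramide, a ceramide with an exceptionally long fatty acid to which linoleic acid is joined. Elovl4 lengthens the fatty acid, Cyp4f39 (the mouse counterpart of human CYP4F22) hydroxylates its end, Cers3 joins it to the sphingoid base, and Pnpla1 transfers linoleic acid onto it. Abca12 carries glucosylated lipid into lamellar granules, the vesicles that granular-layer cells secrete. The lipoxygenases Alox12b and Aloxe3 then act in turn on the linoleate, and the dehydrogenase Sdr9c7 oxidizes their product, a step in attaching the lipid to the protein envelope of the dead cells. Lipk and Lipn belong to a family of lipases of the late epidermis. Loss of the human counterparts of most of these genes causes congenital ichthyosis, a scaling skin disease.

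In tumour-bearing skin, 6 of the 10 genes fell in at least 1 model, and Elovl4, Cyp4f39, Lipk and Lipn passed the test in none. In SmoM2, 6 of the 10 genes fell (Alox12b, Aloxe3, Sdr9c7, Pnpla1, Abca12 and Cers3), by 1.47-fold for Cers3 to 2.97-fold for Alox12b. In PKI, 3 fell, Aloxe3 by 3.74-fold, Alox12b by 2.25-fold and Sdr9c7 by 1.87-fold. In Gnas-eKO none passed the test. No gene of the 10 rose in any model, where 16.2%, 1.46% and 18.7% of all genes tested were called higher. "Fell" here means an adjusted p under 0.05 in edgeR's quasi-likelihood test, adjusted over all genes tested in the model. Of all genes tested, 13.5% were called lower for SmoM2, 0.165% for Gnas-eKO and 15.8% for PKI. The median log2 fold change over the 10 genes was −0.91 for SmoM2, −0.26 for Gnas-eKO and −0.43 for PKI, where the median over all genes tested lay between −0.0012 and 0.020. All 10 genes passed the filter on low counts in every model. In bulk RNA, fewer granular-layer cells and less RNA per cell cannot be told apart.

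**Figure D1:**
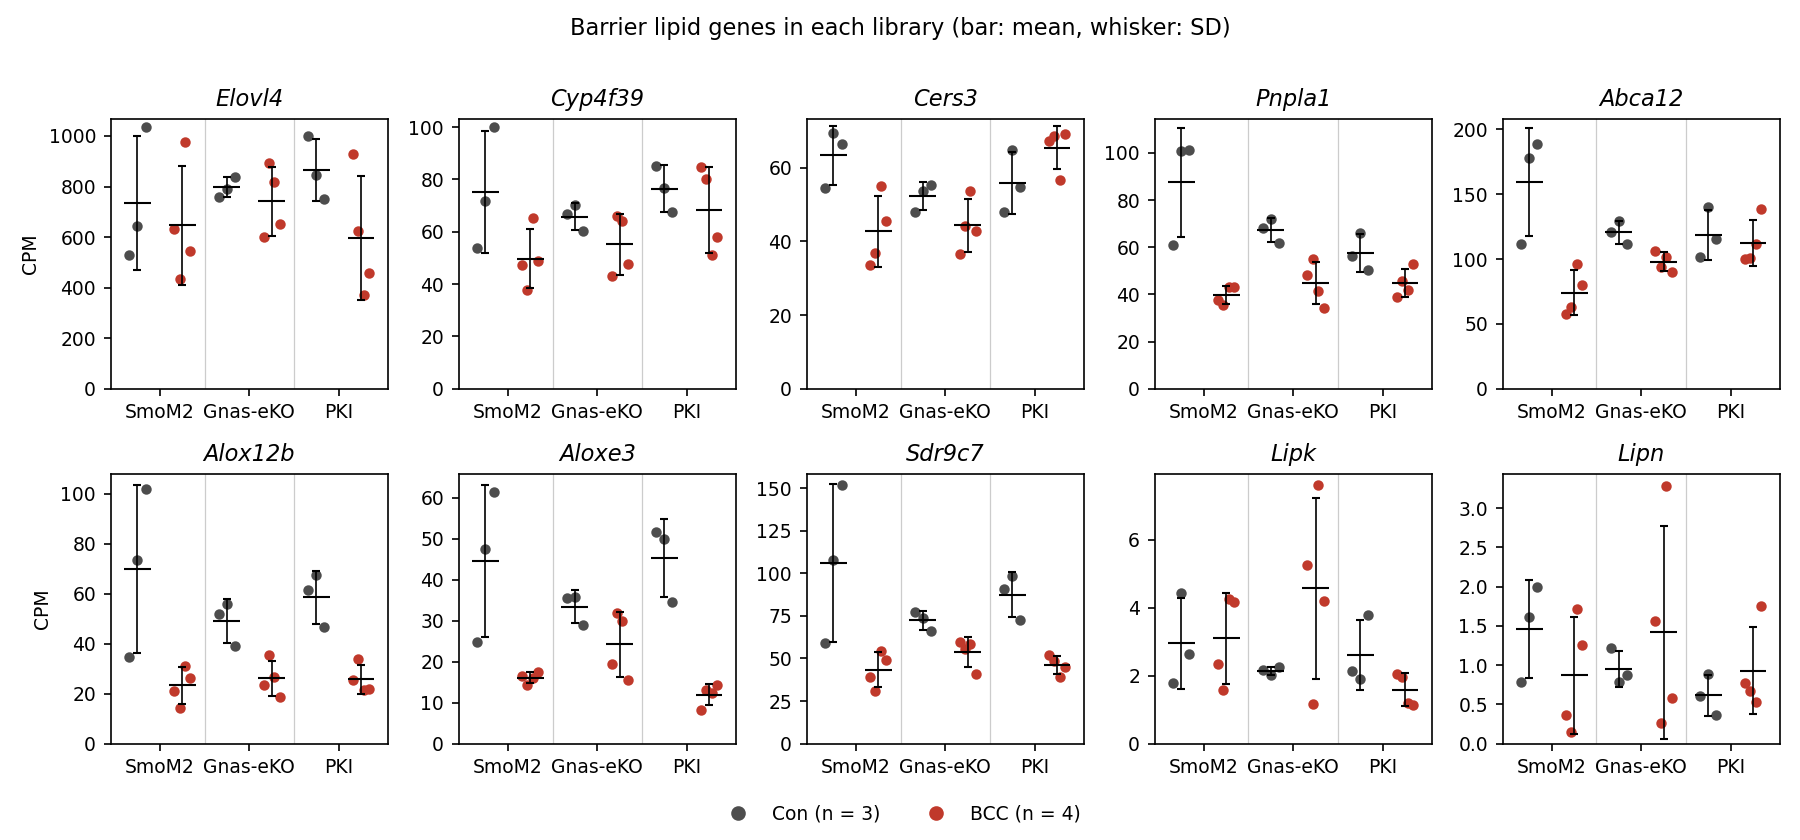
CPM of each of the 10 genes in every library, on 1 scale for all 21 libraries, with genes in pathway order. Grey points are Con (n = 3 per model) and red points BCC (n = 4), bars mark the mean and whiskers the SD. For Alox12b and Sdr9c7 the red points lie below the grey points in all 3 models, while those of Elovl4 overlap them in each.

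In control epidermis the 10 genes lay far apart. Levels between genes were compared as CPM (counts scaled to a common library size over the 21 libraries) per kilobase of annotated exon. Over the 9 Con libraries Elovl4 had 264 ± 52.2 CPM per kilobase (SD, n = 9), well above every other gene of the 10. Sdr9c7 followed with 29.2 ± 9.33, Cyp4f39 with 25.4 ± 4.80 and Alox12b with 24.3 ± 8.35 CPM per kilobase, and these 3 overlapped. Cers3 had 17.6 ± 2.42 and Pnpla1 14.6 ± 3.76 CPM per kilobase. These overlapped each other and the ranges of Sdr9c7, Cyp4f39 and Alox12b. Abca12 had 8.98 ± 2.07 and Aloxe3 6.42 ± 1.89 CPM per kilobase. Abca12 overlapped both Pnpla1 and Aloxe3. Each SD pools the Con libraries of all batches. With the length of the longest coding transcript, chosen after the data were seen, the order was the same, but Abca12 was at 14.5 and Aloxe3 at 13.6 CPM per kilobase. The lipases had the lowest levels, Lipk at 1.17 ± 0.418 and Lipn at 0.538 ± 0.272 CPM per kilobase.

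Alox12b encodes the 12R-lipoxygenase that oxidizes the linoleate of acylceramide, and it shared with Sdr9c7 that its BCC libraries lay below every Con library in all 3 models. Alox12b (ENSMUSG00000032807.5) lies on GRCm38 chr11:69156989-69169792, plus strand. Its upstream sequence and those of Sdr9c7 and Pnpla1 are shown because these 3 genes had their BCC libraries below Con in at least 2 models and hold 1 of the motifs searched (Abca12 met the first condition too and holds none, and Aloxe3 met it but was not matched in RefSeq). The stretch ends at the base before the annotated gene, so 83 bases of the RefSeq window (GRCm38.p6) that lie inside the gene are left out for Alox12b, and chr11:69156822-69156988 is printed on the plus strand with a KLF motif (GGGNGTG, here on the other strand) in capitals.
Alox12b: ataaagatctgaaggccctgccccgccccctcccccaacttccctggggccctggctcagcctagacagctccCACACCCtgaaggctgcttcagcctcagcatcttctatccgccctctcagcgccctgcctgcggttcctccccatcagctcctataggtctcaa
In SmoM2, Alox12b had 34.8, 73.4 and 102 CPM in Con and 21.2, 14.3, 31.2 and 26.4 CPM in BCC. All BCC libraries were below all Con libraries, but Con replicate 1 was close to the highest BCC library. The log2 fold change was −1.57 (edgeR, SE 0.42, adjusted p 0.0346). This call was lost without Con replicate 2 or 3 or without BCC replicate 1, 2 or 4 (edgeR adjusted p up to 0.1). In Gnas-eKO it had 52.0, 55.9 and 39.2 CPM in Con and 23.5, 35.3, 26.7 and 18.7 CPM in BCC, again without overlap, for a log2 fold change of −0.89 (edgeR, SE 0.22, adjusted p 0.0803, not past the threshold). Without Gnas-eKO BCC replicate 2, the highest of the 4, the value was −1.07 and the edgeR adjusted p 0.0104. In PKI the Con libraries had 61.7, 67.3 and 46.6 CPM and the BCC libraries 25.6, 34.0, 21.7 and 21.9 CPM. The groups did not overlap, and the log2 fold change was −1.17 (edgeR, SE 0.18, adjusted p 0.00198). The BCC means of the models were close, at 23.3 ± 7.24 CPM for SmoM2, 26.1 ± 6.99 for Gnas-eKO and 25.8 ± 5.75 for PKI (SD, n = 4 each), and the Con mean was 70.0 ± 33.6, 49.1 ± 8.72 and 58.5 ± 10.7 CPM (SD, n = 3 each).

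Aloxe3, the lipoxygenase that converts the Alox12b product, lies beside it on chr11:69125896-69149115, plus strand (ENSMUSG00000020892.10). It had the steepest fall of the 10 genes in PKI. There the Con libraries had 51.6, 49.9 and 34.4 CPM and the BCC libraries 8.18, 13.1, 12.3 and 14.4 CPM. Every BCC library was far below the lowest Con library, and the log2 fold change was −1.90 (edgeR, SE 0.20, adjusted p 0.000394). In SmoM2 the values were 24.7, 47.5 and 61.5 CPM in Con and 16.4, 14.3, 16.0 and 17.5 CPM in BCC. The BCC libraries lay close together below a wide Con group, and the log2 fold change was −1.46 (edgeR, SE 0.28, adjusted p 0.00711). In Gnas-eKO the values were 35.6, 35.9 and 28.9 CPM in Con and 19.5, 31.9, 30.0 and 15.5 CPM in BCC. BCC replicates 2 and 3 lay inside the Con range, and the log2 fold change of −0.45 (edgeR, SE 0.25, adjusted p 0.363) did not pass the threshold.

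Sdr9c7, a short-chain dehydrogenase that acts after the lipoxygenases, lies on chr10:127898518-127911761, plus strand (ENSMUSG00000040127.13). The printed stretch is chr10:127898285-127898517, plus strand, with 17 bases of the RefSeq window that lie inside the gene left out and a TATAAA match 25 bases from its end in capitals.
Sdr9c7: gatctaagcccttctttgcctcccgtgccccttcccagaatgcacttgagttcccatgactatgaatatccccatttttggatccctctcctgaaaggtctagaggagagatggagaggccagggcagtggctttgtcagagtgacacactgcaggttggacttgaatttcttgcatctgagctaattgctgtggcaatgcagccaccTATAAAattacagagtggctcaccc
In PKI, Sdr9c7 had 90.9, 98.6 and 72.7 CPM in Con and 51.8, 48.7, 39.2 and 44.9 CPM in BCC. The groups were apart, with a log2 fold change of −0.91 (edgeR, SE 0.13, adjusted p 0.000946). In SmoM2 it had 58.8, 108 and 152 CPM in Con and 39.3, 31.0, 54.6 and 48.9 CPM in BCC, also without overlap. The log2 fold change was −1.27 (edgeR, SE 0.35, adjusted p 0.0363), and the call was lost when Con replicate 2 or 3 or any 1 of the 4 BCC libraries was left out (edgeR adjusted p 0.0523 to 0.0954). In Gnas-eKO the Con libraries had 77.0, 73.8 and 66.3 CPM and the BCC libraries 59.9, 55.7, 58.5 and 40.8 CPM. The groups did not overlap there either, but the log2 fold change of −0.41 (edgeR, SE 0.15, adjusted p 0.19) did not pass the threshold.

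Pnpla1 encodes the transacylase that completes acylceramide, and it lies on chr17:28858411-28890309, plus strand (ENSMUSG00000043286.12). Its exons overlap Pnpla1os on the other strand, and whether counting used the strand is not given in the sources used here, so its count is uncertain to that extent. The 250 bases before its start, chr17:28858161-28858410 on the plus strand, hold the KLF motif at 2 places, in capitals.
Pnpla1: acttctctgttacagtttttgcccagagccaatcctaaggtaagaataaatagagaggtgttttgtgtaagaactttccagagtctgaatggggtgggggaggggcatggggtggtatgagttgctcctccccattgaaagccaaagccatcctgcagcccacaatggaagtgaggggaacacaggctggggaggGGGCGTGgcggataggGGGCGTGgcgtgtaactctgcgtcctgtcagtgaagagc
In SmoM2, Pnpla1 had 60.9, 101 and 101 CPM in Con and 37.7, 35.4, 42.9 and 43.2 CPM in BCC. The groups were well apart, and the log2 fold change was −1.12 (edgeR, SE 0.18, adjusted p 0.00224). In Gnas-eKO it had 68.3, 72.0 and 61.9 CPM in Con and 48.2, 55.0, 41.4 and 34.2 CPM in BCC. These groups were apart as well, and the log2 fold change was −0.57 (edgeR, SE 0.16, adjusted p 0.114, not past the threshold). It passed without BCC replicate 2 (−0.68, edgeR adjusted p 0.0265). In PKI the Con libraries had 56.2, 66.1 and 50.3 CPM and the BCC libraries 38.8, 45.8, 41.9 and 52.7 CPM. BCC replicate 4 reached into the Con range, and the log2 fold change of −0.35 (edgeR, SE 0.13, adjusted p 0.0599) missed the threshold, which it passed without BCC replicate 4 (edgeR adjusted p 0.0231) and with DESeq2 (adjusted p 0.0408).

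Upstream sequence was found in RefSeq for 8 of the 10 genes, all but Aloxe3 and Lipk, and 5 motifs were searched on both strands. GGGNGTG, bound by KLF factors, was in 4 of the 8 stretches (Alox12b, Pnpla1, Cyp4f39 and Lipn) and in 26.1% of 32817 RefSeq promoter windows of 250 bases. TATAAA was in the stretch of Sdr9c7 alone and in 12.4% of all windows. TGANTCA, the AP-1 motif, was in that of Lipn alone and in 6.75% of all windows. AACCNGTT, the motif of Grhl factors, was in none of the 8 and in 1.78% of all windows, and TTGCNNAA, the C/EBP motif, was in none and in 9.57%. A match says only that the letters are there.

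Abca12, the transporter that loads lamellar granules, lies on chr1:71242276-71414910, minus strand (ENSMUSG00000050296.14). In SmoM2 it had 112, 178 and 189 CPM in Con and 57.6, 63.2, 96.0 and 79.7 CPM in BCC. The groups did not overlap, with a log2 fold change of −1.09 (edgeR, SE 0.24, adjusted p 0.0139), and the call was lost without Con replicate 3 alone (edgeR adjusted p 0.0571). In PKI it had 102, 140 and 115 CPM in Con and 100, 101, 111 and 138 CPM in BCC. Here the groups overlapped, with 2 BCC libraries just below the lowest Con library, and the log2 fold change was −0.064 (edgeR, SE 0.14, adjusted p 0.754). In Gnas-eKO the values were 121, 129 and 112 CPM in Con and 107, 93.8, 102 and 89.9 CPM in BCC. All BCC libraries were just below Con, and the log2 fold change was −0.28 (edgeR, SE 0.11, adjusted p 0.225).

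Cers3, the ceramide synthase for very long acyl chains, lies on chr7:66743504-66823691, plus strand (ENSMUSG00000030510.11). In SmoM2 it had 54.3, 69.5 and 66.3 CPM in Con and 33.5, 36.8, 55.1 and 45.5 CPM in BCC. BCC replicate 3 lay just above Con replicate 1, so the groups touched, and the log2 fold change was −0.55 (edgeR, SE 0.17, adjusted p 0.0422). Without Con replicate 2 or 3 or without BCC replicate 1, 2 or 4 the call was lost (edgeR adjusted p up to 0.135). In PKI the values lay the other way, with 47.9, 64.9 and 54.7 CPM in Con and 67.3, 68.4, 56.6 and 69.0 CPM in BCC. BCC replicate 3 lay inside the Con range and the other 3 above it, and the log2 fold change of 0.24 (edgeR, SE 0.12, adjusted p 0.146) did not pass. In Gnas-eKO the values were 47.9, 53.5 and 55.2 CPM in Con and 36.6, 44.1, 53.8 and 42.7 CPM in BCC. The log2 fold change was −0.22 (adjusted p 0.445 by edgeR).

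The enzymes that make the acyl chain did not pass the test in any model. Elovl4, the elongase of ultra-long fatty acids (ENSMUSG00000032262.13, chr9:83778692-83806277, minus strand), had 529, 642 and 1034 CPM in SmoM2 Con and 633, 433, 977 and 546 CPM in SmoM2 BCC. The groups overlapped almost fully, with a log2 fold change of −0.17 (edgeR, SE 0.35, adjusted p 0.763). In Gnas-eKO, Elovl4 had 760, 791 and 839 CPM in Con and 601, 892, 820 and 650 CPM in BCC, a log2 fold change of −0.09 (adjusted p 0.828 by edgeR). In PKI it had 998, 845 and 752 CPM in Con and 930, 624, 371 and 457 CPM in BCC. Of these, 3 BCC libraries were below Con and BCC replicate 1 was not, and the log2 fold change was −0.52 (edgeR, SE 0.31, adjusted p 0.23). Without BCC replicate 1 it was −0.84 (edgeR adjusted p 0.0189). Cyp4f39, the hydroxylase (ENSMUSG00000061126.5, chr17:32452723-32493320, plus strand), had 53.9, 71.8 and 100 CPM in SmoM2 Con and 47.3, 37.8, 65.2 and 48.9 CPM in SmoM2 BCC. Its log2 fold change was −0.58 (edgeR, SE 0.25, adjusted p 0.123), and 3 of the 4 BCC libraries lay below Con. This value passed without Con replicate 1 (−0.78, edgeR adjusted p 0.0481) and with DESeq2 (−0.59, adjusted p 0.0253). In Gnas-eKO and PKI the log2 fold change of Cyp4f39 was −0.23 (edgeR adjusted p 0.49) and −0.15 (edgeR adjusted p 0.579), and the groups overlapped.

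The lipases were the least expressed of the 10. Lipk (ENSMUSG00000024771.7, chr19:34008290-34047835, plus strand) had 1.79, 4.42 and 2.65 CPM in SmoM2 Con and 2.36, 1.59, 4.27 and 4.18 CPM in SmoM2 BCC, where BCC replicate 2 was below all Con libraries and the other 3 lay inside the Con range. In Gnas-eKO it had 2.18, 2.02 and 2.25 CPM in Con and 5.27, 1.18, 7.62 and 4.20 CPM in BCC. There 3 BCC libraries were above all Con libraries and BCC replicate 2 was below them, so the log2 fold change of 1.11 (edgeR, SE 0.53, adjusted p 0.294) did not pass. Without that library it was 1.43 (edgeR adjusted p 0.0187). In PKI, Lipk had 2.12, 1.90 and 3.79 CPM in Con and 2.05, 1.96, 1.21 and 1.15 CPM in BCC, a log2 fold change of −0.70 (edgeR, SE 0.35, adjusted p 0.153). Its neighbour Lipn (ENSMUSG00000024770.14, chr19:34067358-34084918, plus strand) ranged from 0.361 to 2.00 CPM in the 9 Con libraries and from 0.144 to 3.28 CPM in the 12 BCC libraries. In these libraries 3 counts correspond to 0.134 to 0.19 CPM, so the lowest Lipn value was at that limit. By model (SmoM2, Gnas-eKO, PKI) the log2 fold change of Lipn was −0.72, 0.59 and 0.59, none past the threshold (edgeR adjusted p 0.482, 0.72 and 0.407), and its groups overlapped in each model.

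**Figure D2:**
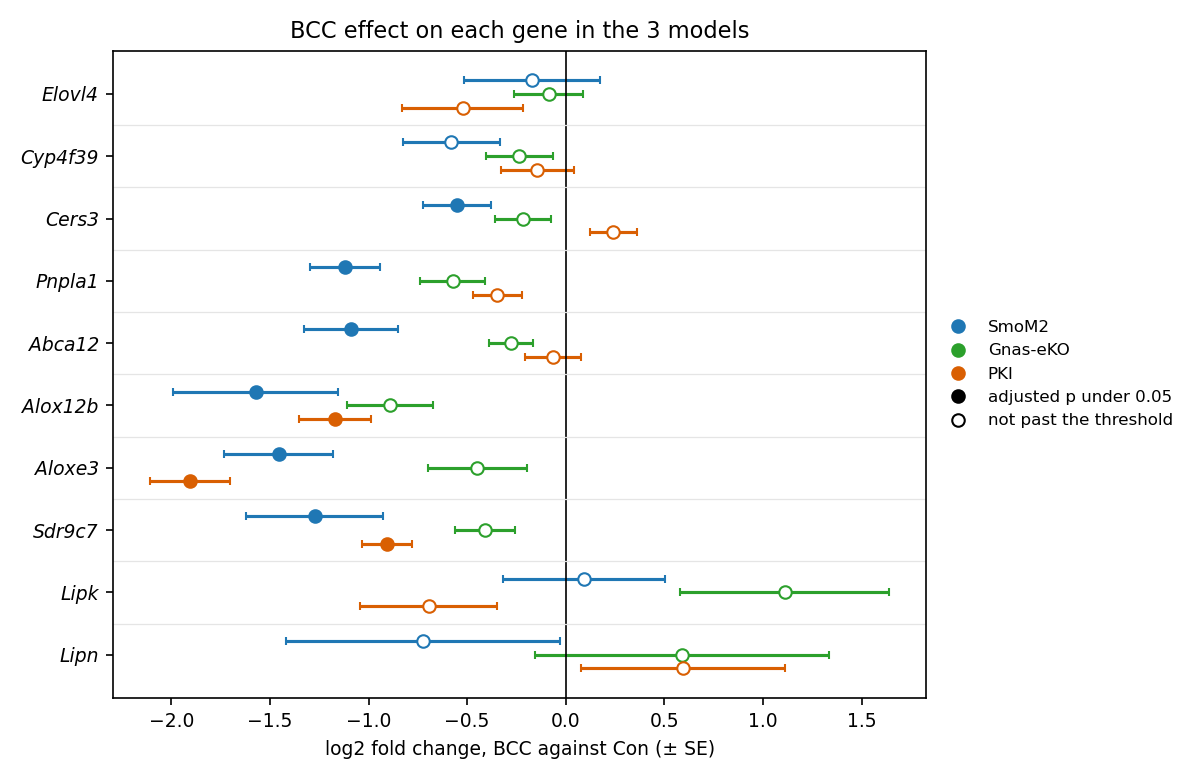
Log2 fold change of BCC against Con for each gene in pathway order, with 1 point per model and the SE as a bar. Filled points have an adjusted p under 0.05. The filled points lie at Cers3, Pnpla1, Abca12, Alox12b, Aloxe3 and Sdr9c7 in SmoM2 and at Alox12b, Aloxe3 and Sdr9c7 in PKI, and none is filled in Gnas-eKO.

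The count of 6 genes that fell in SmoM2 depended on single libraries. Con replicate 1 was the lowest of the 3 SmoM2 Con libraries for all 10 genes and Con replicate 3 the highest for 8, and BCC replicate 2 was the lowest BCC library for 8. Without Con replicate 3 the edgeR count was 2, and without Con replicate 2 or BCC replicate 1, 2 or 4 it was 3. Without Con replicate 1 it was 7. The share of all genes called lower in each of these fits is not given here, so a change in the calls of all genes cannot be told apart from one in the 10. Aloxe3 and Pnpla1 were called lower in every fit that left out a library. The 3 calls in PKI also remained in every such fit. BCC libraries lay below all Con libraries for 5 of the 10 genes in SmoM2, 4 in Gnas-eKO (Alox12b, Pnpla1, Sdr9c7 and Abca12) and 3 in PKI. Over all genes tested this held for 19.2%, 10.1% and 20.8%. In Gnas-eKO edgeR called none of the 10 genes, 4 had an unadjusted p under 0.05 (19.6% of all genes tested), and DESeq2 called 2 lower (Alox12b and Pnpla1, against 2.57% of all genes). Few genes of any kind were called there, 1.63% of all tested. In BCC replicate 2 the summed level of the tail scale keratins Krt31, Krt36 and Krt84 was 21593 CPM. It was 12.8 to 654 CPM in the other 3 BCC libraries and 17318 to 38245 CPM in Con. Over the 10 genes, BCC replicate 2 was the highest BCC library for 5 and the lowest for 2. Whether this library bears on the number of calls was not tested.

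The difference between the models was then tested gene by gene, as the difference of their BCC effects. The effects on Abca12, Cers3 and Pnpla1 were higher in PKI than in SmoM2. The log2 difference (PKI minus SmoM2) was 1.03 for Abca12 (edgeR, SE 0.30, adjusted p 0.0239), 0.80 for Cers3 (SE 0.22, adjusted p 0.0179) and 0.78 for Pnpla1 (SE 0.23, adjusted p 0.0258). These were 3 of 10 genes, none was called lower, and of all genes tested 12.6% were called higher and 12.3% lower in this contrast. The other 7 genes did not pass in this contrast. Among them it was 0.40 for Alox12b (edgeR, SE 0.48, adjusted p 0.576), −0.45 for Aloxe3 (SE 0.37, adjusted p 0.413), 0.37 for Sdr9c7 (SE 0.38, adjusted p 0.522), −0.35 for Elovl4 (SE 0.50, adjusted p 0.648) and 0.44 for Cyp4f39 (SE 0.33, adjusted p 0.372). None of the 3 calls remained without SmoM2 Con replicate 2 and only Cers3 remained without SmoM2 Con replicate 3, PKI Con replicate 1 or PKI Con replicate 3. The call of Pnpla1 was also lost without SmoM2 BCC replicate 2 (edgeR adjusted p 0.0504). For Pnpla1 the BCC means of SmoM2 and PKI were close, 39.8 ± 3.90 and 44.8 ± 6.00 CPM (SD, n = 4 each). Its Con means lay further apart, 87.5 ± 23.1 and 57.5 ± 8.01 CPM (SD, n = 3 each). For Abca12 both differed, with 159 and 119 CPM in Con and 74.1 and 113 CPM in BCC. For Cers3 the Con means were 63.4 and 55.8 CPM and the BCC means 42.7 and 65.3 CPM.

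Aloxe3 was the gene of the 10 whose effect differed between PKI and Gnas-eKO. The log2 difference (PKI minus Gnas-eKO) was −1.46 (edgeR, SE 0.35, adjusted p 0.0214), and 4.57% of all genes tested were called lower in this contrast. The call was narrowly lost without Gnas-eKO Con replicate 2 or 3 or without PKI Con replicate 1 or 2 (edgeR adjusted p 0.0509 to 0.0545). Without Gnas-eKO BCC replicate 2, Lipk was called lower too (−2.12, edgeR adjusted p 0.0122). Without Gnas-eKO BCC replicate 3, Cers3 was called higher (0.57, edgeR adjusted p 0.0374). With all libraries kept none of the 10 was called higher, against 4.49% of all genes tested. Between Gnas-eKO and SmoM2 none of the 10 genes was called by edgeR or DESeq2, and 4 had an unadjusted p under 0.05 in edgeR. The median log2 difference over the 10 was 0.75, against 0.016 over all genes tested. In that contrast 0.175% of all genes tested were called in either direction by edgeR and 1.24% by DESeq2, and 8.74% had an unadjusted p under 0.05. Abca12 came nearest, with a log2 difference of 0.82 (edgeR, SE 0.26, adjusted p 0.322). Each contrast compares 2 batches as well as 2 models, and their parts in a difference cannot be told apart.

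**Figure D3:**
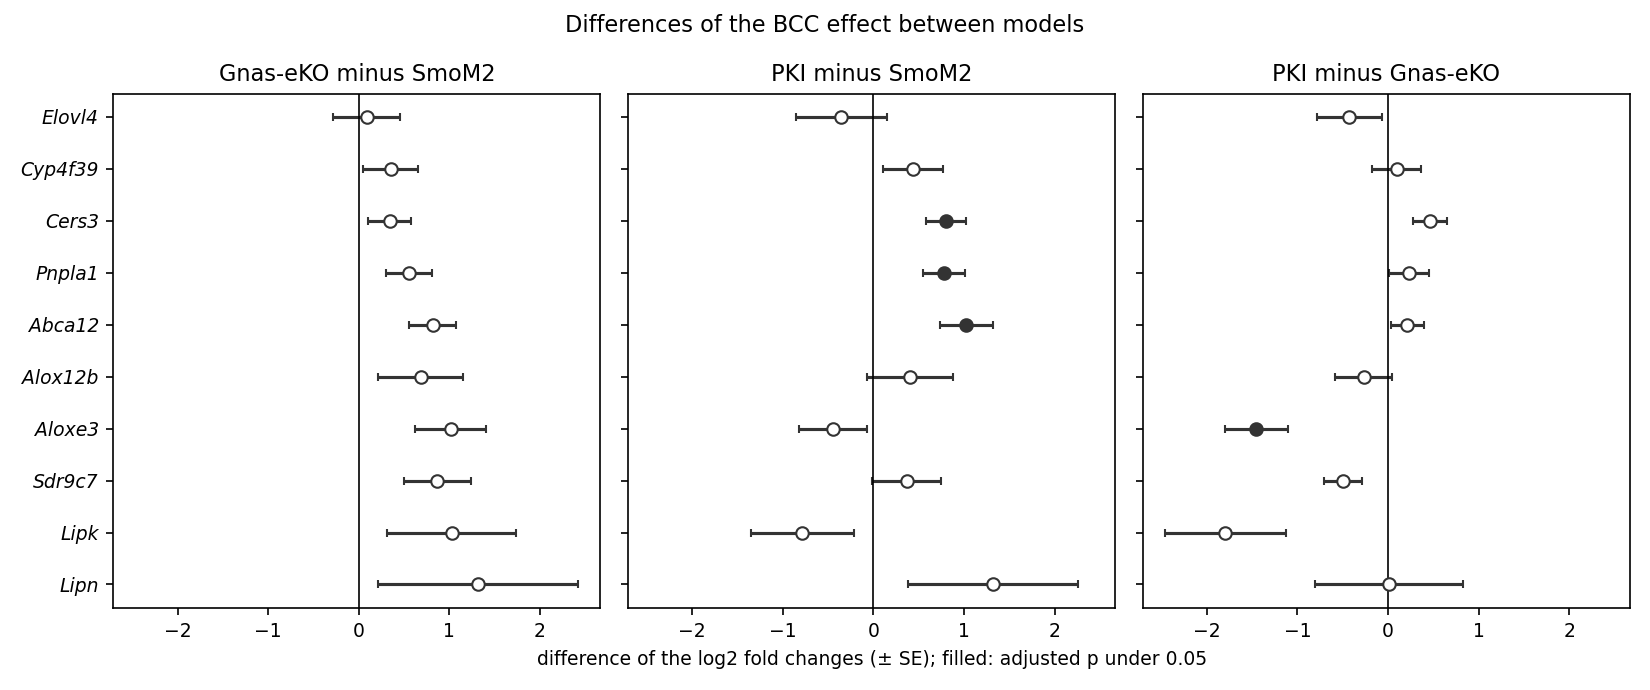
Difference of the BCC effects (log2 fold changes) of 2 models for each gene, with the SE as a bar, in 3 panels. Filled points have an adjusted p under 0.05. In the panel of PKI minus SmoM2, Cers3, Pnpla1 and Abca12 are filled and lie above 0, in that of PKI minus Gnas-eKO Aloxe3 is filled and lies below 0, and in that of Gnas-eKO minus SmoM2 none is filled.

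The wider pathway was followed in a list of 37 other genes of ceramide, fatty acid and sterol sulfate metabolism, of which 36 were in the table. In SmoM2, 16 of 35 tested fell and 3 rose (13.5% and 16.2% of all genes tested), with a median log2 fold change of −0.41. In PKI, 17 of 36 fell and 5 rose (15.8% and 18.7% of all genes), with a median of −0.30. In Gnas-eKO none fell and 1 rose (0.165% and 1.46% of all genes), with a median of −0.13. The sphingomyelin synthase gene Sgms2 rose in all 3 models, from 15.7 ± 1.33 to 34.5 ± 4.95 CPM in SmoM2 (SD, n = 3 and 4), where its log2 fold change was 1.15 (adjusted p 0.000115 by edgeR). In Gnas-eKO and PKI the same value was 1.15 (edgeR adjusted p 0.0326) and 0.66 (edgeR adjusted p 0.00364). The lowest values among the called genes in SmoM2 were those of the epidermal lipase gene Lipm (97.1 ± 20.3 to 40.0 ± 6.88 CPM, SD, n = 3 and 4, log2 fold change −1.26, edgeR adjusted p 0.00104) and of the secreted phospholipase gene Pla2g2f (−1.09, edgeR adjusted p 0.0143). In PKI the lowest among the called genes were those of Dgat2, which makes triglyceride (226 ± 35.8 to 97.1 ± 12.4 CPM, SD, n = 3 and 4, log2 fold change −1.21, edgeR adjusted p 0.000304), and of the ceramidase gene Acer1 (−1.06, edgeR adjusted p 0.000518). The highest among the called genes in PKI was Degs2, a ceramide hydroxylase gene at very low levels (0.300 ± 0.184 to 1.20 ± 0.752 CPM, SD, n = 3 and 4, log2 fold change 2.03, edgeR adjusted p 0.0384), which shares exon positions with Evl on the other strand. Lipm shares exon positions with Ankrd22 and Acer1 with AC073683.1 in the same way, so these counts are uncertain too.

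Relatives of the 10 genes did not all move with them. Alox8, a lipoxygenase gene on the other strand next to Alox12b (chr11:69183932-69197843), rose in SmoM2 from 10.7 ± 5.40 to 42.5 ± 13.1 CPM (SD, n = 3 and 4), a log2 fold change of 2.01 (edgeR, SE 0.41, adjusted p 0.0112). It had log2 fold changes of 1.80 in Gnas-eKO and 2.20 in PKI (edgeR adjusted p 0.0999 and 0.1, not past the threshold). Alox12e, the epidermal lipoxygenase gene, passed in no model, with log2 fold changes of −0.0041, 1.28 and 1.50 in the same order of models, SmoM2 first. Among the elongases, Elovl7 fell in SmoM2 (−0.91, edgeR adjusted p 0.0156) and in PKI (−0.51, adjusted p 0.00603), and Elovl1 fell in SmoM2 (−0.62, adjusted p 0.0205). Elovl3 and Elovl6, like Elovl4, passed in no model. Among the ceramide synthases, Cers2 rose in SmoM2 (1.00, edgeR adjusted p 0.00192) while Cers3 fell there, and Cers4 fell in PKI (−0.93, edgeR adjusted p 0.0252). Between PKI and SmoM2, 8 of the 36 listed genes were called higher in PKI and none lower (12.6% and 12.3% of all genes tested), among them Sult2b1 (cholesterol sulfotransferase, log2 difference 1.20, edgeR adjusted p 0.00346) and Nipal4 (0.97, edgeR adjusted p 0.00577), another gene of congenital ichthyosis. Elovl1, Elovl3, Elovl6, Cers2, Cers4 and Sult2b1 also share exon positions with genes on the other strand, which leaves their counts uncertain.

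**Figure D4:**
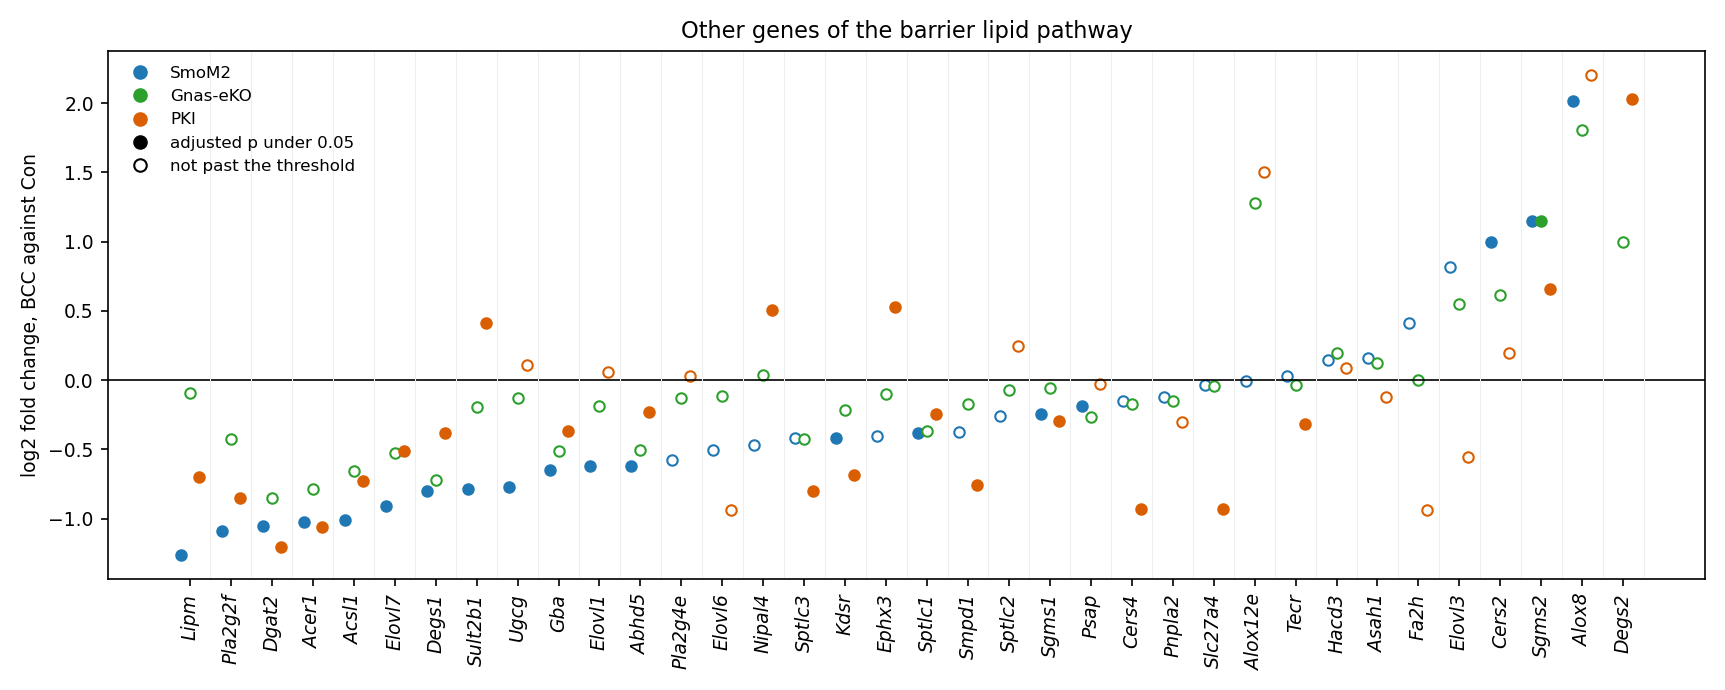
Log2 fold change of BCC against Con for the 36 other listed pathway genes, ordered by the value in SmoM2, with 1 point per model in which the gene was tested and filled points at an adjusted p under 0.05. Degs2, not tested in SmoM2, stands last. Lipm, Pla2g2f, Dgat2, Acer1 and Acsl1 lie lowest in SmoM2, Sgms2 is filled above 0 in all 3 models, and Alox8 lies at 1.80 to 2.20 with the filled point in SmoM2.

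Markers of the layer in which the barrier lipid genes are used moved with them in part. The keratinocyte label was met by the keratins Krt5 and Krt14, which had 15477 to 16735 and 13172 to 14263 CPM as means of the 3 Con groups. Among all genes tested, 13.5%, 0.165% and 15.8% were called lower and 16.2%, 1.46% and 18.7% higher, in the order SmoM2, Gnas-eKO and PKI. Of 10 granular-layer markers, 5 fell in SmoM2 (Casp14, Flg2, Ivl, Tgm1 and Tgm3), 1 in Gnas-eKO (Tgm3) and 4 in PKI (Asprv1, Cdsn, Hrnr and Lor), and none rose. Their medians were −1.13, 0.41 and −0.61 on the log2 scale. Their summed level was 1363 to 3390 CPM in SmoM2 Con, lowest in Con replicate 1, and 702 to 1657 CPM in SmoM2 BCC. In PKI it was 2170 to 3108 CPM in Con and 1046 to 1659 CPM in BCC, and in Gnas-eKO 1409 to 1897 and 1447 to 2371 CPM. Only BCC replicate 1 of Gnas-eKO (2371 CPM) lay above the Con range of this sum, and the other BCC libraries lay inside it. In Gnas-eKO 3 of the 10 markers had a log2 fold change below 0. How these markers relate to the changes of the barrier lipid genes was not tested. Of 6 suprabasal markers 5, 0 and 3 fell in SmoM2, Gnas-eKO and PKI, and Krt1 rose in PKI (1.80, edgeR adjusted p 0.0414). Of 6 basal markers 5, 0 and 4 fell.

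Markers of other cells were followed as well. Shares of all genes tested were 16.2%, 1.46% and 18.7% called higher and 13.5%, 0.165% and 15.8% lower, in the order SmoM2, Gnas-eKO and PKI. The summed level of 9 leukocyte markers was 31.3 to 83.2 CPM in SmoM2 Con and 206 to 600 in BCC, 41.5 to 72.8 and 63.3 to 1122 in Gnas-eKO, and 23.8 to 41.4 and 542 to 2081 in PKI. Of the 9, 2 rose in SmoM2 (S100a9 and Trac) and Itgam fell, none passed in Gnas-eKO, and 8 rose in PKI. Most of the BCC sum was S100a9, which keratinocytes also express, with BCC means of 332, 388 and 1077 CPM against Con means of 26.0, 23.1 and 2.22 CPM in the order SmoM2, Gnas-eKO and PKI. That of 6 fibroblast markers was 17.2 to 39.8 CPM in SmoM2 Con and 388 to 524 in BCC, 16.0 to 27.4 and 93.3 to 578 in Gnas-eKO, and 15.8 to 43.4 and 84.4 to 145 in PKI. Of these 2, 1 and 3 rose in the same order of models and none fell, and most of the BCC sum was Dcn, with BCC means of 440 (SmoM2), 246 (Gnas-eKO) and 88.4 CPM (PKI). In SmoM2 the called genes were Dcn and Col1a2. There Col1a1 (1.57 to 1.97 CPM), Col3a1 (2.70 to 2.53 CPM), Lum and Pdgfra did not pass. Of 7 sebocyte markers, 0, 0 and 1 fell and none rose, with sums of 2402 to 4292 and 2424 to 4418 CPM in SmoM2 Con and BCC and 3486 to 6536 and 1244 to 3883 CPM in PKI. Of 5 melanocyte markers 2, 0 and 4 fell. Of 3 tail scale keratins 2, 0 and 2 fell. Of the 7 hair follicle markers, 3 of 6 tested rose in SmoM2 (Lhx2, Sox9 and Gata3), none of 6 in Gnas-eKO and 4 of 7 in PKI (Lhx2 and the keratins Krt25, Krt27 and Krt71). The log2 fold changes of these 3 keratins were 3.91, 4.84 and 4.53 in PKI and −1.51, −1.38 and −1.50 in SmoM2, the latter not past the threshold. Of the 4 endothelial markers, whose sums were at most 4.5 CPM, only 2 were tested in SmoM2, where 1 rose, 2 in Gnas-eKO and 1 in PKI. No marker of these lists was at 0 in all libraries of a group. Their part in the changes of the 10 genes was not tested.

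Across the 21 libraries, the genes whose log2 CPM most resembled the mean of the 10 were Slc28a3 (Pearson's r 0.923), Cnfn (0.916), Pla2g2f (0.899), Dnase1l3 (0.896) and Dnase1l2 (0.893), out of 12021 candidates. The libraries share models and tumour state, so these values describe a common pattern over groups and carry no test. For single genes the closest were Hspb1 for Alox12b (0.960), Chmp2b for Aloxe3 (0.958) and Sdr9c7 (0.931), Ttc22 for Pnpla1 (0.963), Sult2b1 for Cers3 (0.941), Gnai3 for Abca12 (0.917), Sdr16c6 for Elovl4 (0.913) and Metrnl for Cyp4f39 (0.893). For the lipases they were Slc6a14 for Lipk (0.866) and BC016579 for Lipn (0.805).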

How the data were processed

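Per the labels' protocols, epidermis was separated from tail skin with trypsin and dispase and RNA was prepared with a stranded mRNA ligation kit. The submitters' processing notes name bcl2fastq 2.20, cutadapt 1.18, STAR 2.7.0f, Partek and the build mm10 (GRCm38), without roles. The authors deposited estimated counts per gene without normalization, of which 32.3% were not whole (tolerance 1e-06). They also deposited a normalized signal, each count times a factor per library plus 0.001. Library totals were 16645858 to 22251132 counts, and 3 counts corresponded to 0.134 to 0.19 CPM, a limit for counting error only.

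Counts were rounded, filtered with filterByExpr, scaled by TMM and tested within each model's 7 libraries with edgeR 4.0.16 (robust quasi-likelihood, R 4.3.3) and Benjamini-Hochberg adjustment over all genes tested, with a threshold of 0.05. SE is the absolute log2 fold change over the square root of F. Differences between models were interaction contrasts on 14 libraries. The test was checked on simulated data. CPM used TMM-scaled sizes over all 21 libraries. Gene positions and lengths came from GENCODE M21, upstream sequence from RefSeq. The deposited gene ends lie 1 base beyond the annotated ends given here. Alternatives were DESeq2 1.42.0 (size factors, Wald test), no filter, a replicate block, a joint fit of all 21 libraries, limma 3.58.1 on log2 of the authors' normalized signal (pseudocount 0.5), sex read from Xist and Y-linked counts as a covariate, and leaving out each library.

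The 10 genes were all named. Of the pathway list, the 2 highest and 2 lowest called genes per model and relatives of the 10 were named. Likeness was Pearson's r of log2 CPM (prior count 2) among genes with a mean of at least 2 that passed the filter in all models. The genes and lists were chosen with earlier results of these data known.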

Additional observations from a re-analysis of the deposited data

Results flagged for a closer look

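In 3 genes the BCC effect differed between PKI and SmoM2 by a test of the difference itself (edgeR), where 12.6% of all genes tested were called higher and 12.3% lower. The log2 difference was 1.03 for Abca12, 0.80 for Cers3 and 0.78 for Pnpla1, each with the higher value in PKI, and none of the 3 calls remained without SmoM2 Con replicate 2. Aloxe3 differed between PKI and Gnas-eKO by −1.46, with the lower value in PKI, where 4.57% of all genes were called lower and 4.49% higher. That call was lost in 4 of 14 fits that left out 1 library (edgeR adjusted p up to 0.0545).

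For Cers3 in PKI, BCC replicate 3 had 56.6 CPM, apart from the other 3 BCC libraries, which had 67.3 to 69.0 CPM. It was the sole library singled out by Dixon's outlier test in 30 groups of 4 libraries. Chance alone singles out about 1 group in 20, so this flag is no more than chance gives.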

How the results depend on the processing

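The 3 genes that fell in PKI (Aloxe3, Alox12b, Sdr9c7) and Aloxe3 and Pnpla1 in SmoM2 stayed past the threshold in every alternative run. Without a filter on low counts, 3 genes were called lower in SmoM2 (8.82% of all genes), and Alox12b, Cers3 and Sdr9c7 were lost (edgeR adjusted p 0.069, 0.0605 and 0.075). The 3 differences called between PKI and SmoM2 and that of Aloxe3 remained in every alternative that kept all libraries. In Gnas-eKO, where edgeR called 0, 2 were called lower with the DESeq2 Wald test and 1 in the joint fit (Pnpla1, edgeR adjusted p 0.0245), where these called 2.57% and 6.05% of all genes tested lower. Leaving out 1 library gave 2 to 7 genes lower in SmoM2, 0 to 2 lower and 0 to 1 higher in Gnas-eKO, 3 to 4 lower in PKI, 0 to 3 higher for PKI minus SmoM2, and 0 to 2 lower and 0 to 1 higher for PKI minus Gnas-eKO. The shares of all genes called in the fits that left out 1 library are not given here. With sex as a covariate Alox12b and Sdr9c7 in SmoM2 were not called (edgeR adjusted p 0.0666 and 0.0696), and Elovl4 in PKI was (0.0231).

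The deviations of Con and BCC libraries of the same number from their group means had correlations of −0.127 to −0.087 in SmoM2, 0.041 to 0.184 in Gnas-eKO and −0.066 to 0.283 in PKI, so the numbers were not taken to pair the mice. Of the 3 Con libraries 0, 1 and 2 were closest to the BCC library of their own number. Under the replicate block the genes called lower numbered 7 for SmoM2, 0 for Gnas-eKO and 4 for PKI (8.82%, 0.0427% and 17.5% of all genes), with Cyp4f39 (edgeR adjusted p 0.0469) and Pnpla1 (edgeR adjusted p 0.00903) added, and Lipk in SmoM2 changed direction to −0.092 and Lipn in PKI minus Gnas-eKO to −0.30. With sex as a covariate Cyp4f39 in PKI minus Gnas-eKO changed direction to −0.022. Direction also changed for the following values when 1 library was left out. These ranged from −0.43 to 0.16 for Elovl4 and −0.18 to 0.50 for Lipk in SmoM2, −0.18 to 0.0041 for Elovl4 and −0.21 to 0.93 for Lipn in Gnas-eKO, and −0.18 to 0.068 for Abca12 in PKI. For differences they ranged from −0.24 to 0.36 for Elovl4 in Gnas-eKO minus SmoM2, and from −0.030 to 0.22 for Cyp4f39 and −0.47 to 0.81 for Lipn in PKI minus Gnas-eKO. The cause was not tested.

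Over all genes, 267 were called in Gnas-eKO, against 1535 with DESeq2, 2644 in the joint fit, 135 with the block and 106 with sex. For Gnas-eKO minus SmoM2, 30 were called, against 212 with DESeq2 and 66 in the joint fit. For PKI minus Gnas-eKO, 1564 were called, against 2389 with DESeq2 and 925 with the block. The limma fit on the normalized signal was run within models, not for differences. Lipn, with values near the limit of 3 counts, was measured least precisely.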
